A study of Mus musculus with 6 samples.

Results

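Collagens are the proteins of the extracellular matrix whose chains wind around each other into a triple helix, and their genes were taken here as every row of the count matrices named Col, a type number, the letter a and a chain number. This rule found 44 genes among the 32285 genes of the matrices, and all 44 had at least 1 unique molecular identifier (UMI, a tag that marks 1 captured RNA molecule). They were described in nuclei from the cortex of mice, sorted as NeuN-negative, that is, without the neuronal nuclear protein NeuN.

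All mice carried the 5xFAD transgenes, which drive mutant human amyloid precursor protein and presenilin from a neuronal promoter and give early amyloid plaques, and all were 7.5 months old. The 5xFAD group carried no variant named in the labels. The 5xFADM28L and 5xFADP522R groups also carried the M28L or the P522R variant of phospholipase C-gamma 2, a signalling enzyme of microglia, and the study asked how these variants act on microglia and on disease risk. There was no group without the 5xFAD transgenes, so every level is from a brain with amyloid disease, and a gene count does not show which variant a nucleus carries. Each group had 2 libraries, labelled replicates 2 and 3. Per the labels, each library aimed at 10000 nuclei, 5000 from male and 5000 from female mice, so a library pools animals and its sexes were not separated. The labels do not say how many animals stand behind a library, and a p-value therefore speaks only of how far the libraries scatter.

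The libraries held 9269 to 13783 barcodes with medians of 3842 to 4972 UMIs and 53326947 to 72288942 UMIs in all. Between 1.335% and 2.052% of a library's barcodes also occurred in another library, most often between the 3 replicate 3 libraries (50, 71 and 57 shared barcodes, against 20 to 46 for other pairs). After filters and removal of called doublets, 60085 nuclei remained. Nuclei were clustered on genes that held no collagen, and clusters were named from marker genes that held no collagen either. The named nuclei were 26176 oligodendrocyte-like, 8153 microglia-like, 6172 OPC-like (oligodendrocyte precursor cells), 3906 astrocyte-like, 3157 inhibitory and 1529 excitatory neuron-like, 923 fibroblast-like, 498 pericyte-like, 454 endothelial-like, 410 border macrophage-like and 316 committed oligodendrocyte precursor-like. Neurons were thus present despite the sort, and 1 inhibitory cluster was led by Drd2, Rarb and Rgs9, known from the striatum rather than the labelled cortex. A further 92 nuclei were olfactory ensheathing-like, and 5xFADP522R replicate 3 held 0 of them. No smooth muscle or T cell cluster was found, and 8299 nuclei in 8 clusters stayed unnamed. The vascular types were thin in the library 5xFADP522R replicate 3, which held 36 fibroblast-like, 35 pericyte-like and 24 endothelial-like nuclei.

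As background, collagens are sorted by the structure they build. Fibrillar collagens form the cross-banded fibrils of connective tissue, type IV chains form the sheet-like network of basement membranes, type VI chains form beaded filaments, and fibril-associated collagens (FACITs) sit on the surface of fibrils. Transmembrane collagens stay anchored in the cell membrane until they are shed, and multiplexins carry sugar chains and lie at basement membranes. The brain has little fibrillar collagen outside the meninges and the sheaths of larger vessels, where fibroblasts make it, whereas basement membranes of type IV collagen surround its vessels and underlie the astrocyte endfeet at its surface.

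Levels are counts per 1000000 UMIs (CPM) of all nuclei of 1 type in 1 library. The values of 6 libraries are always given in 1 order: 5xFAD replicates 2 and 3, 5xFADM28L replicates 2 and 3, then 5xFADP522R replicates 2 and 3. Means are given ± SD over these 6 libraries. CPM of different genes are not compared with each other, since longer genes give more UMIs from nuclear RNA.

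The 44 genes divided the tissue among many types rather than resting with fibroblasts alone. For 37 of them the type with the highest mean held at least 100 UMIs. Among the 11 types compared, that type was fibroblast-like for 18 genes, committed oligodendrocyte precursor-like for 5, OPC-like for 3, pericyte-like for 3, microglia-like for 2, endothelial-like for 2, excitatory neuron-like for 2, oligodendrocyte-like for 1 and inhibitory neuron-like for 1. For 25 of the 37 genes the 6 libraries of the highest type all lay above the 6 libraries of the next type, and for 29 the highest type lay above the next within every library. Over all 12982 genes with at least 100 UMIs in their highest type these shares were 34.5% and 47.8%. The olfactory ensheathing-like and the unnamed nuclei stood outside this ranking, and among them cluster 23 had more Col11a1 (475 to 692 CPM) than any ranked type. The remaining 7 genes (Col6a5, Col6a6, Col7a1, Col10a1, Col14a1, Col17a1 and Col28a1) had under 100 UMIs in their highest type.

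**Figure D1:**
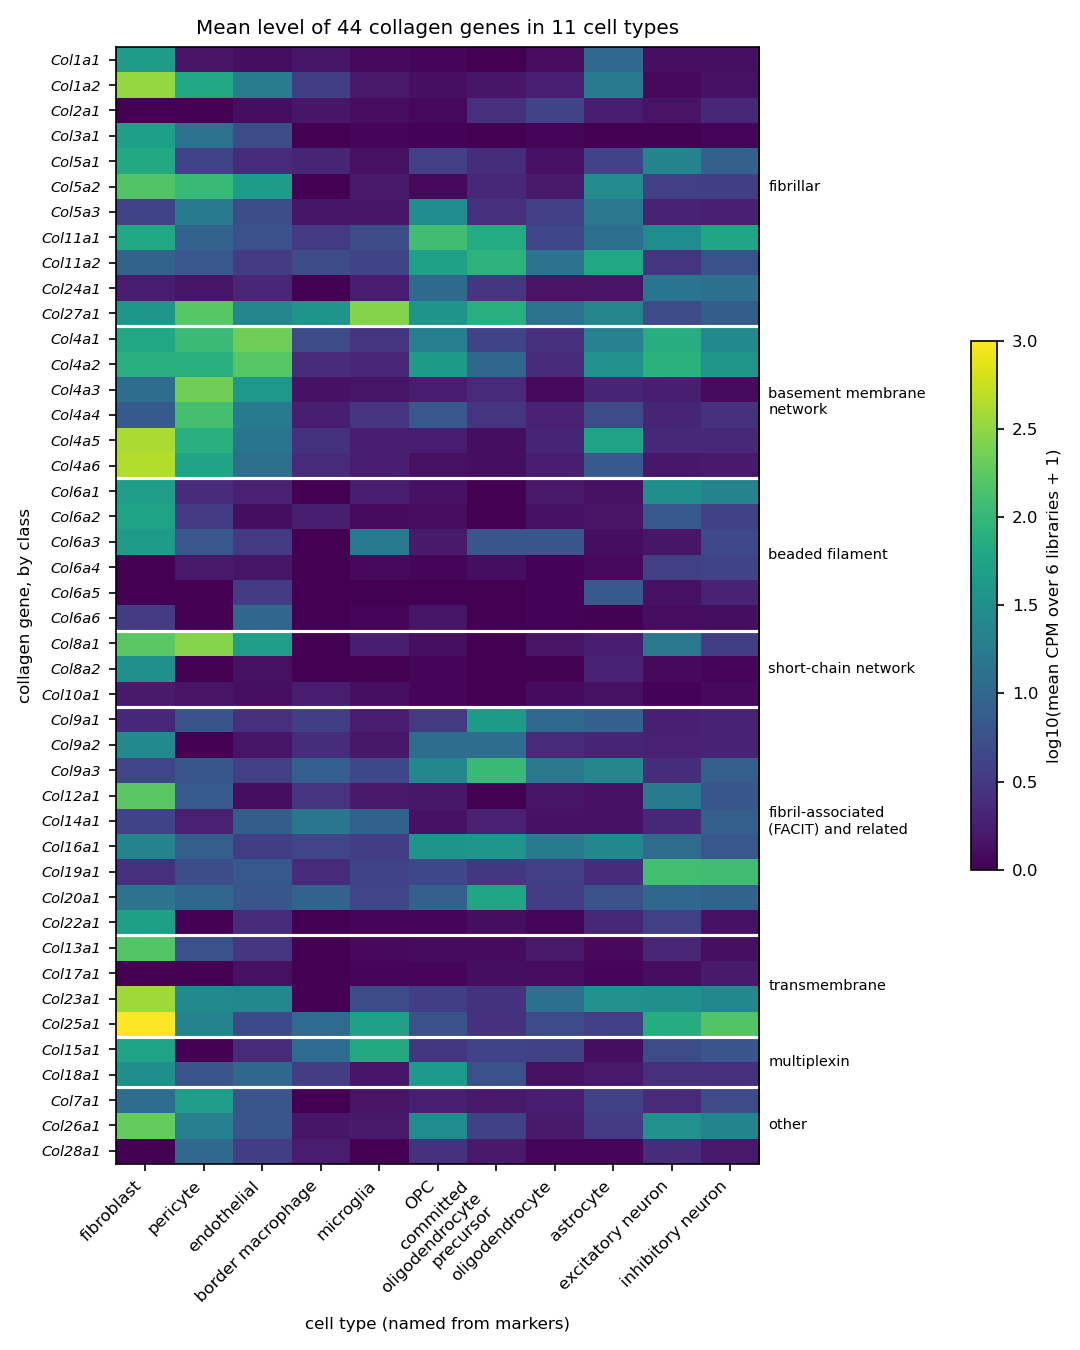
Mean level of each of the 44 collagen genes (rows, grouped by class) in 11 cell types (columns), as log10 of the mean CPM over 6 libraries plus 1, from 0 in dark purple to 3 in yellow. The fibroblast column is bright for most fibrillar, type IV and transmembrane genes, while the Col4a3 and Col4a4 rows are brightest in pericytes, the Col27a1 row in microglia and the Col9a3 row in committed oligodendrocyte precursors.

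The 6 type IV genes lie in 3 pairs, and each pair peaked in a different cell type of the vessel wall and meninges. Within a pair the genes stand head to head on opposite strands and are read away from each other: Col4a1 and Col4a2 start 21 bp apart on chromosome 8, Col4a3 and Col4a4 start 72 bp apart on chromosome 1, and Col4a5 and Col4a6 start 1309 bp apart on chromosome X (GRCm38). The alpha 1 and alpha 2 chains build the general basement membrane, the alpha 3, alpha 4 and alpha 5 chains the filter membrane of the kidney, and the alpha 6 chain pairs with alpha 5.

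The windows around the RefSeq start sites (GRCm38.p6, 250 bases before to 50 bases after the start, 5′ to 3′ on each gene's own strand) are shown because the members of a pair start close together. The windows of Col4a1 and Col4a2 overlap, those of Col4a5 and Col4a6 do not, and Col4a3 is named only. Capitals mark matches on either strand to 3 motifs: the TATA box (TATAAA), the CAAT box (CCAAT) and the GC box (GGGCGG). The windows are chr8:11312777-11313076, minus strand for Col4a1, chr8:11312555-11312854, plus strand for Col4a2, chr1:82586800-82587099, minus strand for Col4a4, chrX:141474027-141474326, minus strand for Col4a6 and chrX:141475169-141475468, plus strand for Col4a5.
Col4a1: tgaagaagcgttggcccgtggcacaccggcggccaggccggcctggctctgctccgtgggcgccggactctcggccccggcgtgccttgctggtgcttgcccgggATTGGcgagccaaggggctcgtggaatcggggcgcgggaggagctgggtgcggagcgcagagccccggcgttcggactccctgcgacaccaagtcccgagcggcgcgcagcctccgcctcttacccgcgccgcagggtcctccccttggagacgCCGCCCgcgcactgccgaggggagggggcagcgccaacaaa
Col4a2: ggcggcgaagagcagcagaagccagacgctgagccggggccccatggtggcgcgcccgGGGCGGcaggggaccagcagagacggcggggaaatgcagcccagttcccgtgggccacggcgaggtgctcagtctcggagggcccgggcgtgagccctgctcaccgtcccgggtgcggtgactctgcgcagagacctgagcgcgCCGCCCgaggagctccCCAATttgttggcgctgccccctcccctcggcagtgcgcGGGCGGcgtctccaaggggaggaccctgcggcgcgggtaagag
Col4a4: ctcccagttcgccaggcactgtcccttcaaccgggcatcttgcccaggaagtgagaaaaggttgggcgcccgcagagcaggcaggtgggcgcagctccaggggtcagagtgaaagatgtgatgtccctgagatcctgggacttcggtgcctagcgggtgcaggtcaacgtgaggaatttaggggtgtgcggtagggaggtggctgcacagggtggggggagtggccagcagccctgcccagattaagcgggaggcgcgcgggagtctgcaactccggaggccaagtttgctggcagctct
Col4a6: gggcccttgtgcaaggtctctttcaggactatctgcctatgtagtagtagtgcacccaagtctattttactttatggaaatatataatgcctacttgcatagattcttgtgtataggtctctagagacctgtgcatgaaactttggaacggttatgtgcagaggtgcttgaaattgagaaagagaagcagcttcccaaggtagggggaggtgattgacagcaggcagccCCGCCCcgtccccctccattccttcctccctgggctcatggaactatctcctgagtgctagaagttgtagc
Col4a5: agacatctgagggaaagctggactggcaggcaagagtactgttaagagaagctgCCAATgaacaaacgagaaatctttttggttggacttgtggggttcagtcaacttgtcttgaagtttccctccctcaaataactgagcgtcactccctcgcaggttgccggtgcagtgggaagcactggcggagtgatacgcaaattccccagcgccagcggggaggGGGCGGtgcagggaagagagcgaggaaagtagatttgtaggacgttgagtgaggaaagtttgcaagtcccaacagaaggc

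None of these 5 windows held the TATA box. The CAAT box stood in the Col4a1, Col4a2 and Col4a5 windows, and the GC box in those of Col4a1, Col4a2, Col4a5 and Col4a6, but neither in that of Col4a4. RefSeq windows were found for 35 of the 44 genes, 38 windows in all. The GC box was in 60.5% of these and in 35.7% of the 32851 windows of all genes, the CAAT box in 34.2% and 37.4%, and the TATA box in 13.2% and 13.6%. These shares describe letters only.

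In endothelial-like nuclei Col4a1 stood at 169, 252, 229, 264, 219 and 221 CPM (226 ± 33.3 CPM, 593 UMIs). Its partner Col4a2 stood there at 167, 161, 180.2, 185, 158 and 147 CPM (166 ± 14.1 CPM). The 6 endothelial values of Col4a1 all lay above the next type, pericyte-like nuclei (80.3 to 144 CPM), and those of Col4a2 above excitatory neuron-like nuclei (70.8 to 90.7 CPM). The pair was present outside vessels too: Col4a2 averaged 38.2 CPM in inhibitory neuron-like, 42.4 CPM in OPC-like and 75.7 CPM in fibroblast-like nuclei. The balance of the 2 chains moved with the type, since 1.32 Col4a1 UMIs were counted per Col4a2 UMI in endothelial-like nuclei (1.01 to 1.56 over libraries) but 0.434 in OPC-like nuclei (0.409 to 0.478). A Col4a1 UMI was seen in 48.9% of endothelial-like nuclei (Wilson 95% interval 44.3% to 53.5%), against 0.607% of oligodendrocyte-like nuclei, at median depths of 3607 and 3815 UMIs. After each nucleus was thinned to 1000 UMIs, leaving out 4 and 72 shallower nuclei, the shares were 15.6% and 0.149%.

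Col4a3 and Col4a4 were highest in pericyte-like nuclei, named for pericytes, the mural cells that wrap capillaries. Col4a3 stood at 201, 169.6, 244, 202, 239 and 278 CPM (222 ± 38.5 CPM) in pericyte-like nuclei, and the next type was endothelial-like nuclei (20.3 to 51.9 CPM). Col4a4 stood at 127, 148, 183, 101, 129 and 90.2 CPM (129.9 ± 33.5 CPM), with endothelial-like nuclei (9.69 to 35.2 CPM) next. All pericyte values lay above those of the next type for both genes. The balance of this pair also moved with the type, at 1.59 Col4a3 UMIs per Col4a4 UMI in pericyte-like nuclei (1.14 to 3.08 over libraries). The ratio was 2.23 in endothelial-like and 1.605 in fibroblast-like nuclei. It was 0.12 in OPC-like nuclei (37 and 308 UMIs, 0.067 to 0.206), 0.288 in astrocyte-like and 0.221 in oligodendrocyte-like nuclei. Pericyte markers summed to a mean of 3373 CPM in the endothelial-like nuclei, against 10802 CPM in the pericyte-like nuclei. Their part in the endothelial levels was not tested. Smooth muscle had no cluster of its own, and its markers summed to a mean of 424 CPM in pericyte-like and 182 CPM in endothelial-like nuclei. The part of smooth muscle in the pericyte-like levels was not tested. A Col4a3 UMI was seen in 41.6% of pericyte-like nuclei (Wilson 95% interval 37.3% to 45.9%), against 8.81% of endothelial-like and 0.08% of oligodendrocyte-like nuclei, at median depths of 3209, 3607 and 3815 UMIs.

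Col4a5 and Col4a6 were highest in fibroblast-like nuclei. Col4a5 stood at 399.5, 477, 473, 326, 456 and 344 CPM (413 ± 66.4 CPM), followed by pericyte-like nuclei (47.7 to 132 CPM). Col4a6 stood at 479, 470.4, 475, 446, 483 and 311 CPM (444 ± 66.3 CPM), followed by pericyte-like nuclei (37.1 to 86.6 CPM). The ranges did not overlap for either gene. In astrocyte-like nuclei the pair came apart, at 55.2 CPM of Col4a5 and 5.87 CPM of Col4a6 on average. There 0.112 Col4a6 UMIs were counted per Col4a5 UMI (0.046 to 0.154), against 1.08 (0.904 to 1.37) in fibroblast-like nuclei. The ratio was 0.765 in pericyte-like (0.316 to 1.71) and 0.75 in oligodendrocyte-like nuclei (0.28 to 1.5), both overlapping the fibroblast range. Across the 11 types, which share libraries and depth, Spearman's rho between partners was 0.927 for Col4a1 and Col4a2, 0.855 for Col4a3 and Col4a4, and 0.909 for Col4a5 and Col4a6.

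**Figure D2:**
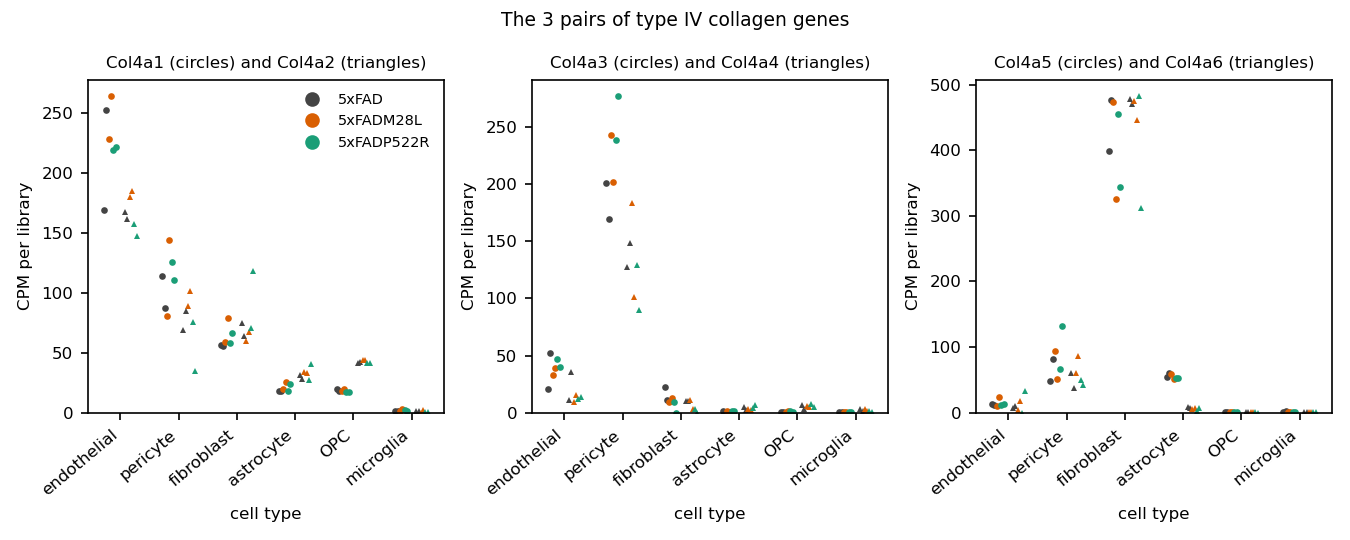
Level of the 6 type IV genes in CPM (vertical axis) for each of the 6 libraries, in 6 cell types, with circles for the first and triangles for the second gene of a pair and colours for the 3 groups. The Col4a1 and Col4a2 points stand highest in endothelial, the Col4a3 and Col4a4 points in pericyte and the Col4a5 and Col4a6 points in fibroblast nuclei, in every library and group.

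Of the 11 fibrillar genes, 5 peaked in fibroblast-like nuclei. Col1a2, the alpha 2 chain of type I collagen, the main fibre protein of connective tissue, stood at 308, 323, 338, 406, 340.5 and 292 CPM (335 ± 39.4 CPM). Its partner Col1a1 stood at 46.01, 40.8, 42.9, 48.1, 36.6 and 42.5 CPM (42.8 ± 4.02 CPM). Col3a1, which makes the thin fibrils of vessels and skin, stood at 62.1, 66.1, 38.2, 48.1, 46.1 and 28.3 CPM (48.2 ± 14.2 CPM). All 3 lay above the next type in each library, with no overlap. Col5a1 and Col5a2 encode chains that start and thin type I fibrils. Col5a1 stood at 62.9, 46.5, 64, 64.2, 56.97 and 94.4 CPM and Col5a2 at 135, 171, 135, 117, 191 and 165 CPM. The Col5a1 values lay clear of the next type, excitatory neuron-like nuclei (13.1 to 27.8 CPM), whereas those of Col5a2 overlapped pericyte-like nuclei (68.9 to 129 CPM). A Col1a2 UMI was seen in 72.5% of fibroblast-like nuclei (Wilson 95% interval 69.5% to 75.3%) and in 0.325% of oligodendrocyte-like nuclei, at median depths of 5094 and 3815 UMIs, and in 27.5% and 0.088% after thinning to 1000 UMIs.

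Type I collagen RNA was also counted in astrocyte-like nuclei, where Col1a1 averaged 9.46 ± 2.18 CPM (272 UMIs) and Col1a2 15.2 ± 3.61 CPM (441 UMIs). Col3a1 had 0 UMIs in these nuclei, which allows a level of up to 0.105 CPM (3 counts of the total), whereas fibroblast-like nuclei held 1 Col3a1 UMI for every 6.39 Col1a2 UMIs (4.89 to 10.3 over libraries). The 12 fibroblast markers summed to 694 CPM in the astrocyte-like nuclei (574 to 793 CPM). Of these, Slc7a11, Ranbp3l and Cped1 averaged 434, 138 and 90.4 CPM, against 2372, 2227 and 2645 CPM in fibroblast-like nuclei. Fbln1 averaged 18.2 and 156 CPM, and the other 8 lay between 0.025 CPM (Lum) and 4.62 CPM (Bnc2) in astrocyte-like nuclei. The part of fibroblast RNA in these counts was not tested. Pericyte-like nuclei held 61.7 CPM of Col1a2 with 1 Col1a1 UMI in all. The fibroblast markers summed to a mean of 2527 CPM there (2136 to 3092 CPM), against 13551 CPM in fibroblast-like nuclei. Their part in the collagen levels of pericyte-like nuclei was not tested.

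The other fibrillar genes peaked elsewhere. Col27a1, a fibrillar chain known from cartilage, was highest in microglia, the brain's resident macrophages, at 292, 249, 314, 352, 248 and 223 CPM (279.7 ± 48.6 CPM, 8965 UMIs). It lay above pericyte-like nuclei (129 to 215 CPM) in all 6 libraries. A Col27a1 UMI was seen in 56.1% of microglia-like nuclei (Wilson 95% interval 55.1% to 57.2%) and in 38.2% of pericyte-like nuclei (34.0% to 42.5%). The share in oligodendrocyte-like nuclei was 4.45%. Median depths were 3554, 3209 and 3815 UMIs. Col11a1, a minor chain that sets fibril width, stood at 113, 128, 116, 127, 114 and 117 CPM (119 ± 6.41 CPM) in OPC-like nuclei. Col5a3, a further type V chain, stood there at 22.01, 25.3, 36.9, 28.5, 28.2 and 28.1 CPM (28.2 ± 4.94 CPM) and overlapped pericyte-like nuclei (6.94 to 22.9 CPM). Col11a2, the partner of Col11a1 in cartilage, was highest in committed oligodendrocyte precursors, the stage between precursor and oligodendrocyte, at 78.9, 89.8, 103, 78.2, 95.4 and 74.2 CPM (86.6 ± 11.3 CPM), and overlapped astrocyte-like nuclei (45.2 to 84.1 CPM). Col24a1, a fibrillar chain of developing bone, reached only 14.1, 14.1, 13.8, 16.96, 14.4 and 8.82 CPM in excitatory neuron-like nuclei and overlapped inhibitory neuron-like nuclei (7.91 to 15.3 CPM). Col2a1, the main fibril chain of cartilage, was low in all types and highest in oligodendrocyte-like nuclei, at 4.73, 2.06, 2.79, 2.82, 3.31 and 2.28 CPM (326 UMIs).

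Among the 9 fibril-associated genes, 4 were highest in committed oligodendrocyte precursor-like nuclei. Col9a3 and Col9a1, 2 chains of type IX collagen, which coats cartilage fibrils, stood at 77.1, 81.3, 136, 102, 122 and 118 CPM (106 ± 23.4 CPM) and at 50.2, 30.5, 36.02, 26.1, 27.1 and 80.4 CPM (41.7 ± 20.9 CPM). Col20a1 stood at 30.5, 49.1, 129, 26.1, 56.96 and 58.8 CPM (58.3 ± 37.01 CPM) and Col16a1 at 28.7, 35.6, 53.2, 11.2, 62.7 and 21.7 CPM (35.5 ± 19.4 CPM). These rest on 125 to 349 UMIs each from 35 to 63 nuclei a library, and Col16a1 overlapped OPC-like nuclei (28.3 to 39.8 CPM). The remaining type IX chain, Col9a2, was highest in fibroblast-like nuclei instead, at 27.6, 22.9, 28.1, 27.3, 29.8 and 18.9 CPM (25.8 ± 4.09 CPM).

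Col12a1, which links fibrils in tissues under tension, stood at 117, 190.3, 106, 172, 163 and 274 CPM (170.3 ± 60.1 CPM) in fibroblast-like nuclei, and Col22a1, a collagen of tissue junctions, at 46.01, 45.7, 56.2, 75.4, 58.3 and 18.9 CPM (50.1 ± 18.7 CPM). Both lay clear of the next type, excitatory neuron-like nuclei. Col19a1 was a neuronal gene, at 119.7, 130.2, 109.6, 117, 129 and 133 CPM in excitatory neuron-like nuclei, which overlapped inhibitory neuron-like nuclei (70.3 to 181 CPM). Neurons were few after the sort and deep (a median of 23275 UMIs in excitatory neuron-like nuclei). Col14a1 had 25 UMIs in its highest type, border macrophages, and 228 in microglia-like nuclei (5.22 to 11.2 CPM).

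The transmembrane genes Col13a1, Col23a1 and Col25a1 were all highest in fibroblast-like nuclei among the 11 types. Outside them, a Col23a1 UMI was seen in 92.4% of olfactory ensheathing-like nuclei, against 49.3% of fibroblast-like nuclei, at median depths of 4762 and 5094 UMIs. Col13a1, a collagen of cell adhesion sites, stood at 129, 145, 152, 167, 189 and 165 CPM (158 ± 20.6 CPM), against 0 to 12.6 CPM in pericyte-like nuclei. Col23a1 stood at 210.1, 352, 312, 533, 365 and 462 CPM (372 ± 113 CPM), clear of astrocyte-like nuclei (23.1 to 39.7 CPM). Col25a1 encodes the collagen whose shed part was first found in amyloid plaques, and it stood at 1059.8, 887, 656, 1754, 872 and 669.9 CPM (983 ± 407 CPM). The level in inhibitory neuron-like nuclei was 99.1 to 251 CPM, below all fibroblast values. Col17a1, known from skin anchoring, had 24 UMIs in its highest type, inhibitory neurons.

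The multiplexins, whose end fragments include endostatin, were highest in glia. Col15a1 stood at 70.9, 67.2, 63.9, 69.8, 61.6 and 60.4 CPM (65.6 ± 4.35 CPM) in microglia-like nuclei and overlapped fibroblast-like nuclei, where it ranged from 21.1 to 109 CPM. Col18a1 stood at 33.4, 37.7, 49.99, 54.5, 40.2 and 30.1 CPM (40.96 ± 9.51 CPM) in OPC-like nuclei and overlapped fibroblast-like nuclei (14.2 to 42.1 CPM). The larger fibroblast-like cluster, cluster 10, described below, averaged 79.9 CPM of Col15a1 and 42.6 CPM of Col18a1. These means lay above those of the glial types, with overlapping ranges. A Col15a1 UMI was seen in 20.6% of microglia-like nuclei (Wilson 95% interval 19.8% to 21.5%) and in 1.09% of oligodendrocyte-like nuclei, at median depths of 3554 and 3815 UMIs.

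The 3 standard type VI chains were highest in fibroblast-like nuclei. Col6a1 stood at 27.6, 35.1, 53.9, 49.7, 47.5 and 61.3 CPM (45.9 ± 12.4 CPM), Col6a2 at 32.2, 40.01, 40.6, 67.4, 59.7 and 80.2 CPM (53.3 ± 18.7 CPM) and Col6a3 at 53.7, 51.4, 32.8, 57.8, 51.5 and 23.6 CPM (45.1 ± 13.6 CPM). Col6a1 was spread more widely, with 26.1 to 36.7 CPM in excitatory neuron-like nuclei, and its ranges overlapped. The alternative chain Col6a4 was low, at 5.76, 2.07, 2.72, 3.52, 2.97 and 2.03 CPM in inhibitory neuron-like nuclei (120 UMIs), overlapping excitatory neuron-like nuclei (1.71 to 4.17 CPM). Col6a6 had 26 UMIs in its highest type, endothelial-like nuclei (0 to 20.4 CPM).

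Col6a5 had 117 UMIs in 50 nuclei over all types, and in astrocyte-like nuclei it rested on 1 nucleus. Of 46 Col6a5 UMIs in 3906 astrocyte-like nuclei, 45 came from a single nucleus of the library 5xFADP522R replicate 3. That nucleus held 71594 UMIs and was not called a doublet. It carried UMIs of 6 of 6 listed markers of ependymal cells, the ciliated lining of the ventricles, among them 233 UMIs of Cfap299 and 96 of Tmem212. Only 5 nuclei grouped as astrocyte-like had UMIs of at least 3 of these 6 markers, and the other 4, of 3851 to 12449 UMIs, had 0 Col6a5 UMIs. The same nucleus gave 14 Col26a1 UMIs. These counts were looked up after the values of Col6a5 were seen.

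Of the short-chain network genes, which build the hexagonal lattices of vessel wall and cornea, Col8a1 was highest in pericyte-like nuclei, at 180.2, 294, 355, 343, 198 and 312 CPM (281 ± 74.2 CPM), and overlapped fibroblast-like nuclei (96.3 to 244 CPM). Its partner Col8a2 was a fibroblast gene, at 22.2, 29.4, 25.8, 27.3, 50.2 and 33.02 CPM (31.3 ± 9.92 CPM). Col10a1, the collagen of growing cartilage, had 4 UMIs in fibroblast-like and 1 in border macrophage-like nuclei. Of the genes outside these classes, Col26a1 stood at 188, 199, 228, 217, 219.8 and 113 CPM (194 ± 42.2 CPM) in fibroblast-like nuclei, clear of excitatory neuron-like nuclei (26.3 to 42.3 CPM). Col7a1, the anchoring fibril of skin, had 82 UMIs in pericyte-like nuclei (15.9 to 77.4 CPM), and Col28a1, a collagen of peripheral nerve, 19 UMIs there (0 to 18.9 CPM).

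The fibroblast-like nuclei formed 2 clusters with different collagens, although no collagen was used to form them. The leading genes of cluster 10 (710 nuclei) included Slc6a13, Aldh1a2, Lama1, Slc6a20a and Ranbp3l, and those of cluster 27 (213 nuclei) Slc47a1, Bnc2, Prg4, Cdh1 and Tbx15. Cluster 27 made up 22.2, 22.6, 23.9, 20.2, 25 and 30.6% of fibroblast-like nuclei in the 6 libraries. Of the 28 collagen genes with at least 50 UMIs in either cluster, 11 were higher in cluster 10 and 7 higher in cluster 27 with no overlap between libraries, and 10 overlapped. Over all 8977 genes with at least 50 UMIs in either cluster, 8.93% were higher in cluster 10 and 6.63% in cluster 27 in this way. The clusters were formed from the same nuclei, so these values are a description without a test.

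Cluster 10 held the type IV pair of chromosome X: Col4a6 stood at 660.0, 693, 659.9, 609, 707 and 512 CPM there and had 2 UMIs in cluster 27, and Col4a5 averaged 596 ± 95.9 CPM against 6.27 ± 7.83 CPM. Col13a1 averaged 229 ± 37.5 CPM in cluster 10 with 1 UMI in cluster 27, and Col22a1 and Col9a2 averaged 71.4 CPM and 37.1 CPM with 0 UMIs in cluster 27, which allows up to 1.88 CPM there. Col26a1 averaged 274 ± 52.4 CPM against 10.3 ± 6.17 CPM. The basement membrane multiplexins belonged to this cluster too, with Col15a1 at 79.9 CPM against 1.68 CPM and Col18a1 at 42.6 CPM with 1 UMI in cluster 27. Col1a2 was present in both, at 379 ± 49.2 CPM and 232 ± 16.7 CPM, with no overlap. Col5a1 averaged 89.7 CPM against 12.4 CPM and Col7a1 15.1 CPM against 1.599 CPM. Col3a1, Col4a1 and Col4a2 were higher in cluster 10 in all 6 libraries, but their ranges overlapped.

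Cluster 27 held 5043 of the 5186 Col25a1 UMIs of fibroblast-like nuclei, at 3819, 2681, 2249.8, 6509.7, 2502 and 1648 CPM, against 13.7, 26.6, 36.8, 21.9, 117 and 38.8 CPM in cluster 10, a ratio of means of 76.1. A Col25a1 UMI was seen in 84.5% of cluster 27 nuclei (Wilson 95% interval 79.0% to 88.8%) and in 6.76% of cluster 10 nuclei (5.14% to 8.85%), at median depths of 6707 and 4737 UMIs. The share in oligodendrocyte-like nuclei was 1.42%. The short-chain pair was here as well, with Col8a1 at 456 ± 259 CPM against 43.03 ± 40.1 CPM and Col8a2 at 82.9 ± 16.6 CPM against 8.06 ± 8.38 CPM. Type VI followed for 2 of 3 chains: Col6a1 averaged 103 ± 41.2 CPM against 20.2 ± 10.4 CPM and Col6a2 129 ± 41.7 CPM against 19.8 ± 10.03 CPM, while Col6a3 overlapped (35.3 CPM and 49.5 CPM). Col12a1 (292 CPM against 112 CPM) and Col11a1 (105 CPM against 43.03 CPM) were the other 2 with no overlap. Col23a1 was higher in cluster 27 in all 6 libraries, at 593 CPM against 268 CPM, though the ranges met. Col1a1 (43.6 CPM and 41.6 CPM) and Col5a2 (151 CPM and 155 CPM) overlapped.

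**Figure D3:**
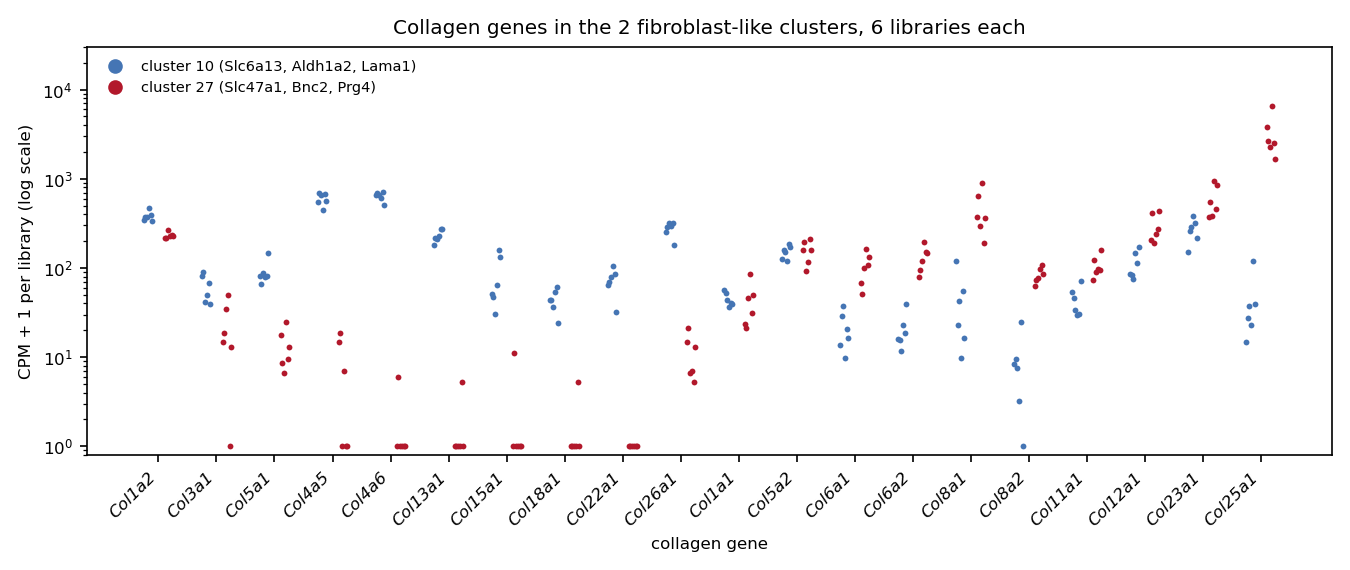
CPM plus 1 (vertical axis, log scale) of 20 collagen genes in fibroblast-like cluster 10 (blue) and cluster 27 (red), 1 point a library. The blue points stand far above the red ones for Col4a5, Col4a6, Col13a1, Col22a1 and Col26a1, the red points far above the blue ones for Col25a1, Col8a1 and Col8a2, and both mix for Col1a1 and Col5a2.

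Along the oligodendrocyte lineage, in which precursors become committed precursors and then myelinating oligodendrocytes, the genes followed different courses. Col11a1 averaged 119 ± 6.41 CPM in OPC-like, 69.6 ± 18.9 CPM in committed precursor-like and 3.34 ± 0.622 CPM in oligodendrocyte-like nuclei, and the 3 ranges did not overlap. Col18a1 averaged 40.96 ± 9.51 CPM, 4.56 ± 5.01 CPM and 0.371 ± 0.184 CPM, and Col5a3 28.2 ± 4.94 CPM, 1.57 ± 2.399 CPM and 2.73 ± 0.612 CPM. In contrast, Col9a3 averaged 24.3 ± 3.197 CPM, 106 ± 23.4 CPM and 14.9 ± 1.17 CPM, highest in the middle stage in every library. Col11a2 had the same shape, at 50.8 ± 9.41 CPM, 86.6 ± 11.3 CPM and 12.7 ± 1.698 CPM, as had Col20a1, at 7.33 ± 2.19 CPM, 58.3 ± 37.01 CPM and 2.53 ± 0.745 CPM. Col16a1 stayed on into oligodendrocyte-like nuclei, at 34.4 ± 4.71 CPM, 35.5 ± 19.4 CPM and 16.4 ± 3.86 CPM. Median depth was 8146.5, 9119.5 and 3815 UMIs a nucleus at the 3 stages, and CPM divides by it. The unnamed cluster 3 (6148 nuclei) was not among these 3 stages. Its leading genes include Enpp6, known from newly formed oligodendrocytes. Of the listed oligodendrocyte markers, 7 of 8 were raised in it, and no other marker list had a share above 0.14. There Col11a1 averaged 2.83 CPM, Col9a3 14.9 CPM, Col11a2 9.67 CPM, Col20a1 3.01 CPM and Col16a1 30.6 CPM.

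**Figure D4:**
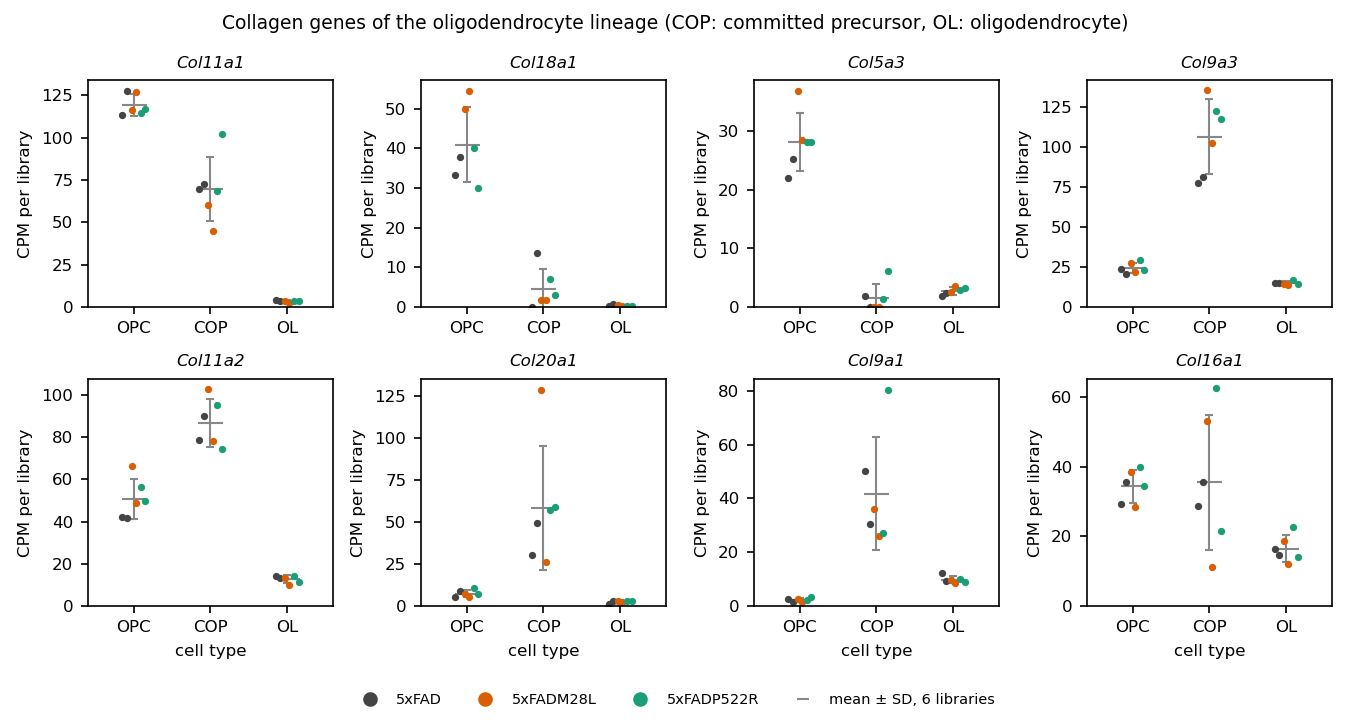
Level in CPM (vertical axis) of 8 collagen genes at 3 stages of the oligodendrocyte lineage, with 1 point a library coloured by group and the mean ± SD of 6 libraries in grey. Col11a1, Col18a1 and Col5a3 are highest in OPC, and Col9a3, Col11a2 and Col20a1 stand highest in committed precursors (COP).

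Within microglia-like nuclei 3 collagen genes differed between the 2 main clusters. Cluster 6 (3425 nuclei) was led by genes such as Bank1, Crybb1 and Selplg, of which Selplg is known from resting microglia, and cluster 4 (4557 nuclei) by Itgax, Dkk2 and Mamdc2, of which Itgax is known from plaque-associated microglia. Col27a1 stood at 343, 384, 364, 454, 351 and 389 CPM in cluster 6 and at 165, 188, 260.2, 269.9, 193 and 171 CPM in cluster 4. Col6a3 averaged 32.5 ± 5.01 CPM and 4.33 ± 3.03 CPM, in the same direction. Col25a1 was the other way round, at 32.9 ± 7.69 CPM in cluster 6 and 64.3 ± 9.37 CPM in cluster 4. None of these 3 overlapped between the clusters, and the other 8 of the 11 genes with at least 50 UMIs did, Col15a1 among them (76.5 CPM and 60.5 CPM). Over all 12815 genes with at least 50 UMIs in either cluster, 5.65% were higher in cluster 6 and 7.43% in cluster 4 with no overlap.

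Astrocyte-like nuclei also formed 2 clusters. Cluster 12 (667 nuclei, led by Myoc, Thbs4 and Gfap, of which Gfap marks fibrous and reactive astrocytes) was above cluster 7 with no overlap for 7 of 20 genes with at least 50 UMIs, and cluster 7 was above it for 0. Over all 13230 genes with at least 50 UMIs in either, these shares were 8.39% and 3.71%. Col9a1 averaged 38.98 ± 20.1 CPM against 1.81 ± 0.915 CPM, Col4a6 26.2 ± 10.4 CPM against 2.16 ± 1.27 CPM and Col5a2 76.7 ± 23.2 CPM against 17.4 ± 3.35 CPM. Col4a5, Col4a1, Col4a2 and Col16a1 made up the rest, with Col4a5 at 106 ± 19.2 CPM against 45.1 ± 4.66 CPM. So 4 of the type IV genes stood higher in the Gfap-rich cluster, while Col1a1 (7.44 CPM and 10.05 CPM) and Col1a2 overlapped.

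Among neurons, cluster 13, inhibitory neurons led by Vip, Kcnmb2, Lhx6 and Reln, was rich in Col19a1 and Col25a1. Col19a1 stood at 230.1, 448, 282, 179.6, 343 and 367 CPM there, against 119 ± 42.7 CPM over all inhibitory neuron-like nuclei. Col25a1 stood at 425, 402, 146, 172, 274 and 442 CPM. A Col25a1 UMI was seen in 30.97% of cluster 13 nuclei (27.5% to 34.6%), at a median depth of 14022 UMIs.

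The design compares the 3 groups within each type. Collagens were tested as 195 pairs of a gene and a type in each comparison, in 11 types, from 40 of the 44 genes (Col6a5, Col6a6, Col10a1 and Col17a1 were too low in all types). In edgeR's quasi-likelihood test with Benjamini-Hochberg adjustment, 0 pairs were called at 0.05 in 5xFADM28L against 5xFAD, where 0.00402% of all gene and type pairs were called (5 of 124513). The count was 0 in 5xFADP522R against 5xFAD (0.0145%, 18 pairs) and 0 in 5xFADP522R against 5xFADM28L (0.0241%, 30 pairs). At an unadjusted p under 0.05 the collagen counts were 19 (9.74%), 26 (13.3%) and 13 (6.67%), beside 7.42%, 8.87% and 6.38% of all pairs. DESeq2 called 0, 0 and 1 collagen pairs, beside 0.208%, 0.206% and 0.217% of all pairs. Without a filter on low counts edgeR called 5, 10 and 7 of 444 collagen pairs, beside 1.28%, 2.05% and 1.05% of all pairs. These calls hold Col6a5 in astrocyte-like nuclei in both comparisons of 5xFADP522R, where 45 of 46 UMIs came from 1 nucleus. The comparisons share libraries and are not independent. In the following, the 2 pairs with the smallest p in each comparison are given for 7 of the 11 types. They come with log2 fold changes, their SE, and the edgeR p adjusted over all genes of the type, and none passed the test. The neuron-like, border macrophage-like and committed precursor-like types were tested too but are not listed in this way.

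In fibroblast-like nuclei the smallest p in both comparisons of 5xFADP522R belonged to Col15a1, at 36.04, 34.3, 21.1, 46.5, 109 and 80.2 CPM. Both 5xFADP522R libraries lay above the other 4. The log2 fold change was 1.45 (SE of 0.33, edgeR adjusted p = 0.462) against 5xFAD and 1.63 (SE of 0.35, edgeR adjusted p = 0.762) against 5xFADM28L. Within cluster 10 alone Col15a1 stood at 49.7, 45.9, 29.3, 63.5, 159 and 132 CPM, with the same 2 libraries highest, and these rest on 87 and 25 nuclei of that cluster. Summed over the whole marker lists, oligodendrocyte markers in the fibroblast-like nuclei were at 1163, 878, 1173, 1138, 1749 and 1458 CPM (8 of 8 detected a library), highest in the 5xFADP522R libraries. Fibroblast markers were at 14018, 13613, 13890.5, 14547, 12907 and 12332 CPM (11 to 12 of 12 detected a library), lowest there, and microglia markers at 97.4, 358, 92.1, 88.2, 119 and 193 CPM (8 to 10 of 10 detected a library). Their part in the Col15a1 difference was not tested. For Col6a1 (values above) the log2 fold change of 5xFADM28L against 5xFAD was 0.72 (SE of 0.27, edgeR adjusted p = 0.9997), and for Col6a2 that of 5xFADP522R against 5xFAD was 0.84 (SE of 0.33, edgeR adjusted p = 0.879). Both genes were higher in cluster 27, whose share per library is given above, and its part in these differences was not tested. Col16a1 stood at 26.1, 26.9, 15.6, 11.2, 23.1 and 23.6 CPM, lower in both 5xFADM28L libraries than in both 5xFAD libraries, with a log2 fold change of -0.93 (SE of 0.37, edgeR adjusted p = 0.9997). Col5a2 differed by 0.49 (SE of 0.21, edgeR adjusted p = 0.98) between 5xFADP522R and 5xFADM28L.

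**Figure D5:**
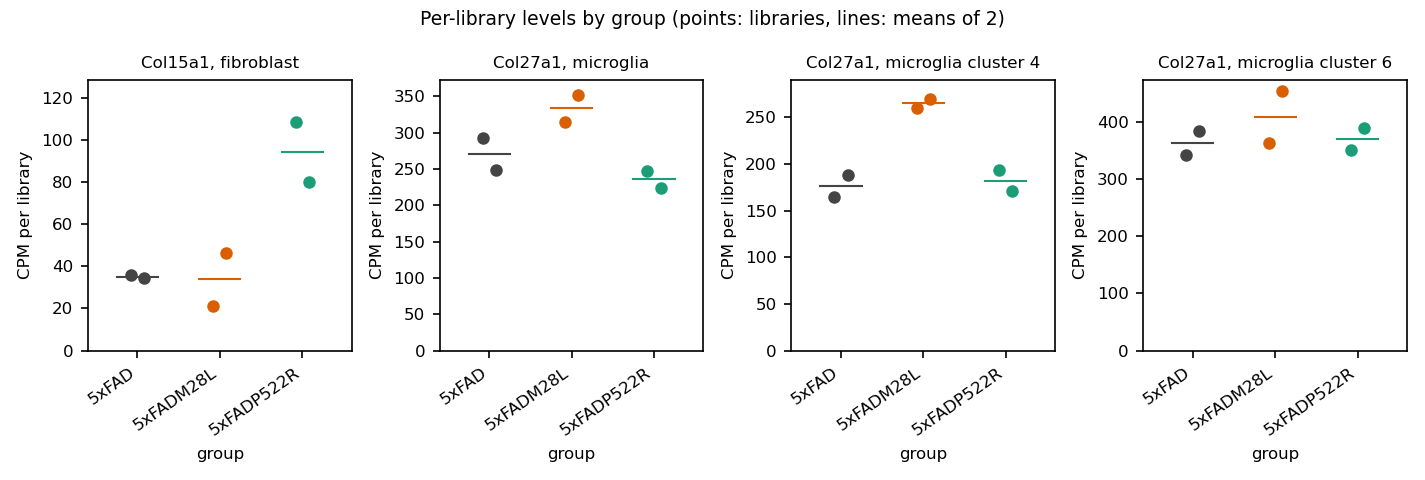
CPM per library (vertical axis) by group for Col15a1 in fibroblast-like nuclei and for Col27a1 in all microglia-like nuclei and in microglia clusters 4 and 6, with points for the 2 libraries of a group and lines for their means. The 2 5xFADP522R points are the highest for Col15a1, and the 2 5xFADM28L points the highest for Col27a1 in all microglia-like nuclei; no difference passed the test.

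In pericyte-like nuclei Col7a1 stood at 29.2, 15.9, 77.4, 50.5, 47.2 and 62.5 CPM, from 82 UMIs. Both variant groups lay above 5xFAD in every library, with log2 fold changes of 1.47 (SE of 0.47, edgeR adjusted p = 0.733) for 5xFADM28L and 1.16 (SE of 0.52, edgeR adjusted p = 0.655) for 5xFADP522R. Col8a1 was highest in the 5xFADM28L libraries, with 0.52 (SE of 0.25, edgeR adjusted p = 0.964) against 5xFAD and -0.53 (SE of 0.27, edgeR adjusted p = 0.726) for 5xFADP522R against 5xFADM28L. The log2 fold change of Col4a3 was 0.40 (SE of 0.24, edgeR adjusted p = 0.803) for 5xFADP522R against 5xFAD. Col27a1 stood at 143, 180.2, 129, 137, 182 and 215 CPM, and 0.54 (SE of 0.27, edgeR adjusted p = 0.721) was the log2 fold change of 5xFADP522R against 5xFADM28L. Microglia markers in the pericyte-like nuclei were at 90.1, 98.04, 65.9, 97.4, 59.8 and 652 CPM (6 to 10 of 10 detected a library), highest in the library with the most Col27a1. Oligodendrocyte markers were at 978, 1343, 1058, 1068, 2577 and 1631 CPM (8 of 8 detected a library), highest in the 5xFADP522R libraries. Astrocyte markers were at 1887, 567, 1737, 2519, 365 and 486 CPM (6 to 8 of 8 detected a library), lowest in those libraries. The part of these markers in the differences was not tested.

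In endothelial-like nuclei Col4a1 and Col4a2, which peak there, had log2 fold changes of -0.22 (SE of 0.26, edgeR adjusted p = 0.949) and -0.30 (SE of 0.23, edgeR adjusted p = 0.905) between 5xFADP522R and 5xFADM28L, and Col4a2 -0.13 (SE of 0.23, edgeR adjusted p = 0.977) between 5xFADP522R and 5xFAD. Col23a1 stood at 3.12, 12.98, 46.5, 17.2, 5.84 and 60.3 CPM from 52 UMIs, with 2.04 (SE of 0.90, edgeR adjusted p = 0.9999) for 5xFADM28L and 1.64 (SE of 1.08, edgeR adjusted p = 0.902) for 5xFADP522R against 5xFAD. The latter became -0.43 without the library 5xFADP522R replicate 3, which held 24 such nuclei. Fibroblast markers in the endothelial-like nuclei were at 389, 391, 289, 309, 356 and 1079 CPM (6 to 11 of 12 detected a library), highest in that library. Pericyte markers were at 2298, 4079, 2576, 3578, 2889 and 4820 CPM (8 of 8 detected a library), also highest there. The part of these markers was not tested. Col5a2 stood at 74.9, 25.97, 25.2, 36.5, 26.3 and 73.7 CPM, and its log2 fold change of -0.71 (SE of 0.54, edgeR adjusted p = 0.9999) for 5xFADM28L against 5xFAD became 0.25 without 5xFAD replicate 2.

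In OPC-like nuclei Col18a1 was higher in both 5xFADM28L libraries than in the other 4 (values above). The log2 fold change was 0.56 (SE of 0.13, edgeR adjusted p = 0.313) against 5xFAD, and -0.61 (SE of 0.14, edgeR adjusted p = 0.856) for 5xFADP522R against 5xFADM28L. Col11a2 stood at 42.1, 41.6, 66.4, 48.9, 56.4 and 49.5 CPM, a log2 fold change of 0.47 (SE of 0.14, edgeR adjusted p = 0.33) for 5xFADM28L against 5xFAD. In OPC-like nuclei 12.1% of all genes had an unadjusted p under 0.05 in that comparison. With the replicate number as a block in the fit, edgeR called Col18a1 in both comparisons above, and Col11a2 and Col5a3 for 5xFADM28L against 5xFAD. Of all 124513 pairs, that setting called 2193 for 5xFADM28L against 5xFAD and 511 for 5xFADP522R against 5xFADM28L. These counts cover all 11 types and do not give the share within OPC-like nuclei. The labels do not say what a replicate number marks, so these calls stand only as an alternative. Col27a1 stood at 30.8, 28.2, 41.7, 33.5, 35.6 and 41.3 CPM and Col26a1 at 26.4, 21.5, 28.5, 29.2, 32.2 and 28.2 CPM, with log2 fold changes of 0.33 (SE of 0.14, edgeR adjusted p = 0.419) and 0.28 (SE of 0.13, edgeR adjusted p = 0.44) for 5xFADP522R against 5xFAD. Col5a3 had -0.28 (SE of 0.15, edgeR adjusted p = 0.881) for 5xFADP522R against 5xFADM28L. Fibroblast markers in the OPC-like nuclei were at 650.4, 615, 574, 541, 612 and 561 CPM (8 to 12 of 12 detected a library), lower in both 5xFADM28L libraries than in both 5xFAD libraries. Oligodendrocyte markers were at 359.9, 302, 359, 552, 577 and 559 CPM (8 of 8 detected a library), higher in both 5xFADP522R libraries than in the other 4. Their part was not tested.

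In microglia, the cells in which the altered enzyme is mainly made, Col27a1 was highest in the 5xFADM28L and lowest in the 5xFADP522R libraries. Its log2 fold change was -0.53 (SE of 0.12, edgeR adjusted p = 0.264) for 5xFADP522R against 5xFADM28L, 0.34 (SE of 0.12, edgeR adjusted p = 0.932) for 5xFADM28L against 5xFAD and -0.19 (SE of 0.12, edgeR adjusted p = 0.581) for 5xFADP522R against 5xFAD. Cluster 4, where Col27a1 was lower, made up 27.7, 67.7, 47.5, 51.8, 64.3 and 69.2% of microglia-like nuclei in the 6 libraries. Within cluster 4 the 5xFADM28L libraries were the highest, and within cluster 6 the values of the 3 groups overlapped, as listed above. The part of the cluster shares in the differences was not tested. Col16a1, at 2.16, 3.296, 1.31, 1.86, 2.14 and 4.42 CPM, had log2 fold changes of -0.77 (SE of 0.53, edgeR adjusted p = 0.932) for 5xFADM28L against 5xFAD and 1.10 (SE of 0.51, edgeR adjusted p = 0.429) for 5xFADP522R against 5xFADM28L. Col11a1, at 5.66, 4.53, 4.16, 3.35, 3.48 and 2.46 CPM, had -0.79 (SE of 0.34, edgeR adjusted p = 0.449) for 5xFADP522R against 5xFAD. These 2 genes are low in microglia. The microglia markers themselves summed to 7936, 7416, 8412, 8699, 7149 and 6429 CPM (10 of 10 detected a library), highest in the 5xFADM28L and lowest in the 5xFADP522R libraries, like Col27a1. Oligodendrocyte markers in these nuclei were at 637, 881, 665, 744, 1114 and 2506 CPM (8 of 8 detected a library), highest in 5xFADP522R replicate 3, which also had the most Col16a1. Astrocyte markers were at 659.5, 659.6, 706, 775, 472 and 441 CPM (8 of 8 detected a library), lowest in the 5xFADP522R libraries. The part of these markers in the differences was not tested.

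In astrocyte-like nuclei Col27a1 stood at 12.7, 16.97, 19.1, 23.9, 24.7 and 35.98 CPM, lowest in the 5xFAD and highest in the 5xFADP522R libraries. The log2 fold change was 0.90 (SE of 0.26, edgeR adjusted p = 0.331) for 5xFADP522R and 0.54 (SE of 0.24, edgeR adjusted p = 0.912) for 5xFADM28L against 5xFAD. Microglia markers in these nuclei were at 82.7, 81.8, 68.8, 81.5, 70.3 and 82.1 CPM (10 of 10 detected a library). Oligodendrocyte markers were at 438, 428, 492, 576, 948 and 852 CPM (8 of 8 detected a library) and excitatory neuron markers at 73.6, 94.01, 129, 113, 171 and 232 CPM (6 to 7 of 7 detected a library), both lowest in the 5xFAD and highest in the 5xFADP522R libraries, like Col27a1. Fibroblast markers were at 759, 793, 759, 675, 601 and 574 CPM (7 to 12 of 12 detected a library), lowest in the 5xFADP522R libraries. Most of this sum was Slc7a11, at 496, 503, 481, 394, 358 and 372 CPM. The part of these markers in the differences of this type was not tested. Col23a1 stood at 39.7, 32.6, 23.1, 30.4, 27.9 and 39.1 CPM and Col5a1 at 1.91, 1.62, 2.65, 2.74, 3.89 and 5.47 CPM, with -0.44 (SE of 0.20, edgeR adjusted p = 0.912) for 5xFADM28L and 1.24 (SE of 0.47, edgeR adjusted p = 0.412) for 5xFADP522R against 5xFAD. Col9a1 stood at 9.799, 6.79, 11.4, 6.73, 3.89 and 5.47 CPM and Col1a2 at 11.95, 18.2, 16.3, 20.4, 12.02 and 12.5 CPM, with -1.13 (SE of 0.42, edgeR adjusted p = 0.538) and -0.68 (SE of 0.30, edgeR adjusted p = 0.577) for 5xFADP522R against 5xFADM28L. Cluster 12, rich in Col9a1, made up 18.4, 13.4, 14.6, 17.9, 18.4 and 28.6% of astrocyte-like nuclei in the 6 libraries, and its part in the difference was not tested. When 5xFADP522R replicate 2 was left out, Col6a5 was called in both comparisons with 5xFADP522R and Col26a1 in that with 5xFAD, beside 0.595% and 0.567% of all pairs. Of the 46 Col6a5 UMIs 45 came from the 1 nucleus described above.

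In oligodendrocyte-like nuclei some of the smallest p-values belonged to genes that are hardly present there. Col5a2 stood at 1.25, 0.796, 0.737, 0.599, 0.192 and 0.319 CPM (68 UMIs) and Col4a5 at 1.25, 1.66, 1.37, 1.02, 0.576 and 0.319 CPM (108 UMIs), lowest in the 5xFADP522R libraries. Their log2 fold changes were -2.00 (SE of 0.49, edgeR adjusted p = 0.319) and -1.67 (SE of 0.42, edgeR adjusted p = 0.326) for 5xFADP522R against 5xFAD, and that of Col4a5 was -1.42 (SE of 0.43, edgeR adjusted p = 0.592) against 5xFADM28L. Fibroblast markers, 10 to 12 of 12 of which were detected a library, summed to 60.3, 52.2, 45.7, 37.6, 30.7 and 31.02 CPM in the same nuclei and were also lowest in the 5xFADP522R libraries, which held 116 and 36 fibroblast-like nuclei against 109 to 284 in the other 4 libraries. Pericyte markers summed to 14.7, 17.8, 11.3, 13.1, 7.53 and 6.8 CPM (8 of 8) and endothelial markers to 24.7, 23.8, 23.9, 19.8, 11.8 and 8.61 CPM (10 of 10). The part of these markers in the result was not tested.

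Col27a1 stood at 10.9, 11.8, 11, 11.5, 15.4 and 15.4 CPM in oligodendrocyte-like nuclei, highest in both 5xFADP522R libraries, a log2 fold change of 0.43 (SE of 0.12, edgeR adjusted p = 0.567) against 5xFADM28L. This was opposite to the direction in microglia, whose markers (10 of 10) summed to 62.4, 95.99, 63.5, 91.5, 55.4 and 93.2 CPM in the oligodendrocyte-like nuclei. Col23a1 stood at 9.51, 10.4, 12.3, 14.9, 9.79 and 12.1 CPM and Col6a3 at 4.102, 4.38, 4.896, 5.81, 5.66 and 6.27 CPM, with 0.47 (SE of 0.18, edgeR adjusted p = 0.361) and 0.36 (SE of 0.19, edgeR adjusted p = 0.458) for 5xFADM28L against 5xFAD.

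Outside the rule for named pairs, and chosen after its value was seen, Col25a1 in inhibitory neuron-like nuclei stood at 144, 161, 105, 99.1, 154 and 251 CPM. It was lower in both 5xFADM28L libraries, with a log2 fold change of 0.97 (SE of 0.19, edgeR adjusted p = 0.999) for 5xFADP522R against 5xFADM28L in edgeR. DESeq2 gave 0.97 (SE 0.22) and an adjusted p of 0.0171. Cluster 13, which is rich in Col25a1, made up 12.7, 18.4, 25, 22.5, 22.5 and 31.4% of these nuclei. Within it Col25a1 was lowest in the 5xFADM28L libraries (values above). The part of the cluster shares in the difference was not tested.

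The genes that process, bind and degrade collagen were taken from 6 lists of 86 genes. They gave 521 tested pairs in each comparison, of which 0 were called higher and 0 lower by edgeR, with 50, 59 and 40 at an unadjusted p under 0.05, that is 9.6%, 11.3% and 7.68%, beside 7.42%, 8.87% and 6.38% of all pairs. They were chosen for their roles, and those named are among the 3 genes of each list with the highest level in fibroblast-like nuclei. Several were higher in another type. Adamts2, which trims the ends of fibrillar chains, averaged 273 ± 83.96 CPM in fibroblast-like and 58.8 ± 17.2 CPM in oligodendrocyte-like nuclei. The prolyl hydroxylase subunit P4ha1, which stabilises the helix, averaged 130.1 ± 14.8 CPM in fibroblast-like but 268 ± 23.7 CPM in microglia-like nuclei, and Mia2, an export factor for bulky cargo, 146 ± 15.5 CPM and 279.7 ± 15.7 CPM.

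Among receptors, the endocytic collagen receptor Mrc2 averaged 329 ± 32.5 CPM in fibroblast-like, 287 ± 40.5 CPM in pericyte-like and 123 ± 31.1 CPM in microglia-like nuclei. The receptor kinase Ddr2 averaged 289 ± 33.2 CPM and 141 ± 26.1 CPM in the former 2 types, and the integrin chain Itga1 1183 ± 119.8 CPM in pericyte-like and 787 ± 89.9 CPM in endothelial-like nuclei, above 186 ± 22.1 CPM in fibroblast-like nuclei. The basement membrane partner Lama1, a laminin chain, averaged 982 ± 92.4 CPM in fibroblast-like nuclei, and Lamc1 342 ± 29.5 CPM there and 812 ± 103 CPM in pericyte-like nuclei. Mmp16, a membrane-bound protease, averaged 1186 ± 103 CPM in OPC-like and 316 ± 35.6 CPM in fibroblast-like nuclei, and Timp3, a protease inhibitor, 569 ± 230.2 CPM in endothelial-like and 493 ± 107 CPM in fibroblast-like nuclei. Fibronectin, Fn1, which binds collagen in the matrix, averaged 690.1 ± 63.6 CPM in endothelial-like and 275 ± 96.8 CPM in fibroblast-like nuclei.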

How the data were processed

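The data were single-nucleus RNA counts from 6 libraries, 2 for each of 5xFAD, 5xFADM28L and 5xFADP522R, grouped by the sample titles. The authors deposited matrices of UMI counts per gene and nucleus barcode, made with Cell Ranger 6.1.2 against mm10 per the submitters' processing notes; per the file headers, 5xFADP522R replicate 3 came from version 5.0.1. Depth is given with the results.

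Nuclei with at least 500 UMIs, 300 genes and at most 5% mitochondrial counts were kept (62651), and 2566 called doublets were removed (Scrublet, 1 common threshold of 0.311). Nuclei were clustered in Python 3.11.15 with scanpy 1.11.5 and leidenalg 0.10.2 (2000 variable genes without collagens, 30 components, resolution 1). Clusters were named from marker lists by at least 3 raised markers, and the bounds of that rule were set after the clusters were seen. Names rebuilt in this way may differ from the study's. Counts were summed per library and type (at least 20 nuclei) and tested in R 4.3.3 with edgeR 4.0.16, quasi-likelihood, TMM scaling and filterByExpr (minimum count 10), with all 6 libraries in 1 fit. DESeq2 1.42.0 was an alternative. The fit was tested on simulated data. Share intervals are Wilson 95% intervals and, like the limit of 3 counts for a count of 0, cover counting error only.

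The members and lists were chosen with earlier results of these data known. Each gene with at least 100 UMIs in its highest type was named there, and in 7 types the 2 genes with the smallest p per comparison. The X-linked Col4a5 and Col4a6 were kept as members. Sequences came from RefSeq promoter tables (GRCm38.p6).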

Additional observations from a re-analysis of the deposited data

Results flagged for a closer look

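In these data 3 genes differed between 2 groups in opposite directions in different cell types, with every library of one group on one side of every library of the other. None of these differences passed the edgeR test within its type, and the difference between the types was not itself tested. The rule asked for an unadjusted edgeR p under 0.05 in each type. Of 37 collagen genes tested in at least 2 types it was met by 0 in 5xFADM28L against 5xFAD, by 1 (2.7%) in 5xFADP522R against 5xFAD and by 2 (5.41%) in 5xFADP522R against 5xFADM28L, beside 1.66%, 2.13% and 3.27% of all 16283 genes tested in at least 2 types. Library values are in the order 5xFAD, 5xFADM28L, 5xFADP522R, replicates 2 and 3 of each.

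Col27a1 was lower in 5xFADP522R than in 5xFADM28L in microglia-like nuclei, by a log2 fold change of -0.529, and higher in inhibitory neuron-like nuclei, by 0.693, and in oligodendrocyte-like nuclei, by 0.426. The inhibitory neuron-like values were 4.63, 3.01, 6.99, 5.38, 9.45 and 10.7 CPM.

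Col4a1 was higher in 5xFADP522R than in 5xFAD in inhibitory neuron-like nuclei, by 0.489, at 19.7, 21.7, 22.9, 33.3, 29.4 and 30.4 CPM. It was lower in oligodendrocyte-like nuclei, by -0.815, at 1.82, 2.06, 1.58, 1.98, 1.34 and 0.8499 CPM, from 170 UMIs. Endothelial markers in the oligodendrocyte-like nuclei were lowest in the same 2 libraries, and their part was not tested.

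Col5a2 was higher in 5xFADP522R than in 5xFADM28L in fibroblast-like nuclei, by 0.489. It was lower in inhibitory neuron-like nuclei, by -1.293, at 3.51, 3.203, 3.69, 2.48, 0.8099 and 1.82 CPM, and in oligodendrocyte-like nuclei, by -1.409. Fibroblast markers in the oligodendrocyte-like nuclei were lowest in the 5xFADP522R libraries, and their part was not tested.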

How the results depend on the processing

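Of the named fold changes under alternatives, 639 kept their direction and their side of the threshold, 15 moved past it and 2 reversed, and all 148 levels by type moved by less than 1 SD. The reversals were Col5a2 in endothelial-like nuclei for 5xFADM28L against 5xFAD, 0.246 without 5xFAD replicate 2 (-1.238 to 0.246 over left-out libraries), and Col23a1 there for 5xFADP522R against 5xFAD, -0.432 without 5xFADP522R replicate 3 (-0.432 to 2.883). The cause was not tested.

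For 5xFADM28L against 5xFAD, 5xFADP522R against 5xFAD and 5xFADP522R against 5xFADM28L, edgeR called 0 collagen pairs. With no filter on low counts these became 5, 10 and 7 of 444, beside 1.28%, 2.05% and 1.05% of all pairs. With the replicate number as a block they became 4, 3 and 1 of 195, beside 2193, 2474 and 511 of all 124513 pairs. DESeq2 gave 1 in the last comparison. Leaving out 1 library at a time gave 0 to 0, 0 to 2 and 0 to 1, and the 2 and the 1 came without 5xFADP522R replicate 2. Where this left a group with 1 library, that library was assumed to vary like the other groups.

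Over all genes and types the calls were 5, 18 and 30. They were 2970, 4735 and 2425 without the filter, 2193, 2474 and 511 with the block, 259, 257 and 270 with DESeq2, 3, 18 and 4 at a minimum count of 50, 5, 8 and 65 with only the compared libraries, 4, 18 and 5 with doublets kept, 3, 12 and 9 at clustering resolution 2, and 4, 20 and 13 with collagens among the clustering genes. Leaving out 1 library gave 2 to 84, 21 to 802 and 9 to 764. The labels do not say what a replicate number marks, and each group has only 2. Of 33 correlations of same-numbered deviations (3 pairs of groups in 11 types, -0.084 to 0.475, median 0.156), 22 were over 0.1, and all 3 were in 6 types, OPC (0.28 to 0.427) and oligodendrocyte-like nuclei (0.385 to 0.475) among them, but not in the other 5, so the block was not taken as pairing. With it, edgeR called Col18a1 in OPC-like nuclei for 5xFADM28L against 5xFAD (adjusted p = 0.00346) and 5xFADP522R against 5xFADM28L (0.0208), Col11a2 (0.00613) and Col5a3 (0.0231) there and Col11a1 in excitatory neuron-like nuclei (0.0292) for 5xFADM28L against 5xFAD, and Col27a1 in astrocyte-like (0.044) and Col5a2 (0.0366) and Col4a5 (0.0399) in oligodendrocyte-like nuclei for 5xFADP522R against 5xFAD.

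The median share of nuclei with a UMI, over the named genes in their highest type, was 27.8% and became 8.89% when nuclei were thinned to 1000 UMIs, an alternative chosen after seeing the data. With 2 libraries a group and 24 to 153 endothelial-like, 35 to 139 pericyte-like and 36 to 284 fibroblast-like nuclei a library, differences between groups in the vascular types rest on few nuclei.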

Other observations

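Collagens were also counted in 2 clusters outside the 11 types compared. The 92 olfactory ensheathing-like nuclei (cluster 31) were absent from 5xFADP522R replicate 3 and were not tested. A Col11a1 UMI was seen in 93.5% of them (Wilson 95% interval 86.5% to 97.0%) and a Col23a1 UMI in 92.4% (85.1% to 96.3%), at a median depth of 4762 UMIs. Col11a1 was seen in 1.25% of oligodendrocyte-like nuclei. An unnamed cluster of 328 nuclei (cluster 23), whose leading genes included Drd3, Stac, Isl1 and Gpr149, had a Col11a1 UMI in 96.6% of its nuclei (94.1% to 98.1%), at a median depth of 9267.5 UMIs. Its Col11a1 level was 642, 625, 561, 692, 643 and 475 CPM in the 6 libraries.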
